A study of Mus musculus with 20 samples.

Results

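Knockout and heterozygous forebrain slices were compared after 24 h in serum, over all genes, in 14 of the 20 RNA-seq libraries of the series. The 14 libraries were taken from the 24 h count table by genotype and sex in their labels: 3 heterozygous (Het) and 4 knockout (KO) libraries labelled female, and 3 Het and 4 KO libraries labelled male. All came from slices of forebrain cut from pups at postnatal day 4 and exposed to 5% horse serum for 24 h. The targeted gene is Tnfaip6, which encodes TSG-6. The Het controls carry 1 knockout allele by their genotype label, so no group here was free of it. The treatment text of the same samples speaks of WT slices, and sample titles were followed. Serum medium is given as DMEM for the samples and as HBSS for the series. The labels name no strain, deleted exon or animal, and nothing says that libraries of a group came from separate pups, so the p-values below speak of the spread between libraries, and that spread may be technical. The other 6 libraries of the series were not used.

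TSG-6 is a secreted protein that binds hyaluronan, the large sugar polymer of brain matrix, and links to it the heavy chains of a serum protein, inter-alpha-inhibitor. Its gene is induced by inflammatory signals, and the protein is best known for damping inflammation and for building hyaluronan-rich matrix. A forebrain slice keeps neurons, glia, vessels and pieces of neighbouring tissue together, so each library is a mixture of cell types, in which fewer cells of a type and less RNA per cell cannot be told apart.

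Library totals ran from 8482933 counts (KO male 2) to 18051300 counts (KO female 3), and 16013 genes were tested with edgeR. Pairs of libraries of 1 group differed by more than counting noise, with a chi-square per degree of freedom between 3.32 and 13.6 in 18 pairs, so no library was counted as a copy of another. Sex-linked genes went against 1 label, and another library carried both kinds of transcript. The library labelled KO female 2 had 0 counts of Xist, the noncoding RNA of the silenced X chromosome, against 343.7 to 364.4 CPM (counts scaled to library size) in the other KO females. It had 77.1 CPM of the Y-linked helicase gene Ddx3y, against 0 in the 6 other libraries labelled female. The library labelled Het male 1 had 10.5 CPM of Xist beside 64.6 CPM of Ddx3y, while Xist was at most 0.554 CPM in the other males. The male minus female contrast called 3 genes (0.0187% of those tested), and 9 without KO female 2. In that contrast 4.71% of genes had an unadjusted p under 0.05 (2.27% higher in males, 2.44% lower) and 48.4% lay above 0. Results below are given with the labels as deposited, and values without KO female 2 and Het male 1 are given for the leading genes and for the lists whose counts or medians shift most.

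The targeted gene was read first. Tnfaip6 (ENSMUSG00000053475, chromosome 2 at 52038009 to 52056686, plus strand, GRCm38) was not lost in KO-labelled slices. Its level was 4.83, 3.43 and 5.54 CPM in the Het females, 8.09, 5.14, 5.28 and 7.54 CPM in the KO females, 5.12, 3.93 and 6.42 CPM in the Het males, and 7.87, 6.41, 6.86 and 5.64 CPM in the KO males. KO libraries lay higher on average in both sexes, the groups overlapped, and 4 of the 8 KO libraries exceeded every Het library. The mean was 4.88 ± 1.08 CPM in Het (SD, n = 6) and 6.60 ± 1.17 CPM in KO slices (SD, n = 8). In edgeR the log2 fold change came to 0.45 ± 0.15 (SE), with an adjusted p of 0.732. Taken as a single value, with labels exchanged within sex, the difference gave a two-sided exact permutation p of 0.0204 over 1225 arrangements. By sex alone the exact permutation p was 0.171 in females and 0.143 in males, where 35 arrangements allow no less than 0.0286. Counts were 45 to 108 reads per library over the whole gene, and a deletion that spares most of the transcript would not show in such a total. Every direction below therefore rests on the genotype labels.

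Across all genes no difference between KO and Het slices passed the threshold of an adjusted p of 0.05. The smallest adjusted p in edgeR's quasi-likelihood test with Benjamini-Hochberg adjustment was 0.0881, shared by Per1, a core gene of the circadian clock, and Lama5, which encodes the alpha 5 chain of laminin. Without adjustment, 1056 genes (6.59%) had a p under 0.05, of which 600 were higher in KO slices (3.75%) and 456 lower (2.85%). Without the filter on low counts edgeR called 105 genes, 92 of them higher. DESeq2 called 6 genes and limma voom with quality weights 2, the latter Lama5 and Per1. The 6 of DESeq2 were Per1, Lama5 and Reln, higher in KO slices, and Fabp7, Prdm12 and the unnamed transcript 9530051G07Rik, lower. The test was not a coarse one: among the 14059 genes with a mean log2 CPM of 1 or more, the median SE was 0.0756, and the 95% confidence interval of 13060 genes (92.9%) lay wholly within 1.5-fold either way. For 13913 genes (99.0%) it lay within 2-fold. Without KO female 2 and Het male 1 no gene passed either, and the smallest adjusted p was 0.948.

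**Figure D1:**
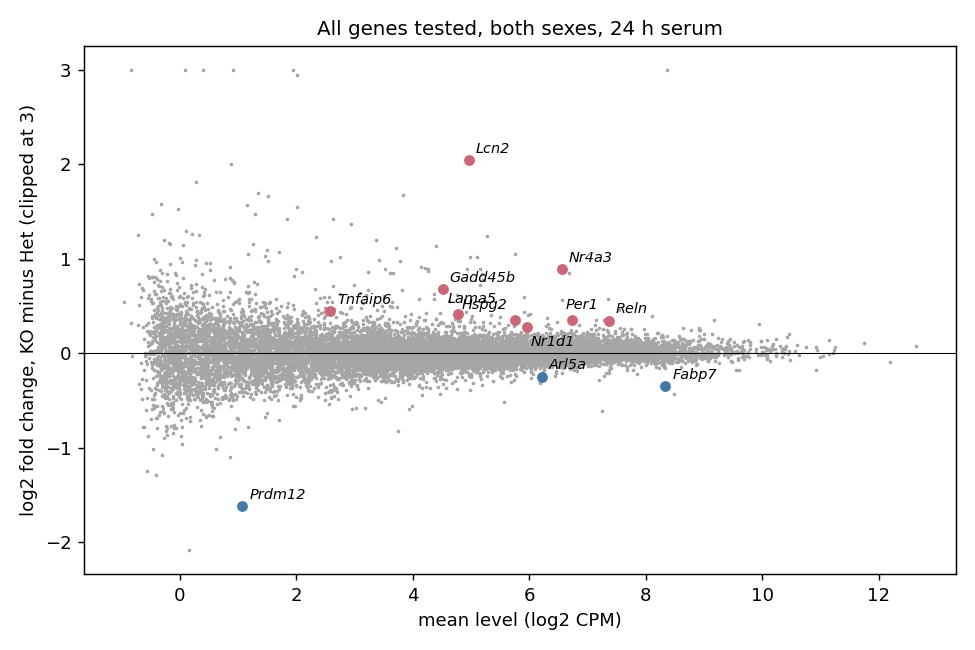
Log2 fold change, KO minus Het over both sexes with sex as covariate, against the mean level in log2 CPM, 1 point per gene for the 16013 genes tested (fold changes beyond 3 are drawn at 3). Named genes are coloured by direction; most points above a mean of 4 lie close to 0, and none passed the adjusted threshold.

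Per1 was the gene with the smallest p. Its protein represses the clock factors that switch it on, and its transcription also responds acutely to cAMP, calcium and glucocorticoids. Per1 lay between 83.8 and 104.1 CPM in the 6 Het libraries (median 91.2) and between 106.9 and 128.4 CPM in the 8 KO libraries (median 118). Every KO library was above every Het library. Over all genes tested, complete separation upwards held for 2 (0.0125%), Per1 and the zinc finger gene Zfp369, and downwards for 5 (0.0312%). Apart from Per1 and Prdm12 these genes were named after their values were seen: Zfp369 above and Prdm12, Ccdc90b, Dnajc24, 9530051G07Rik and Gm12462. The log2 fold change of Per1 was 0.35 ± 0.06 (SE), 0.35 in females and 0.35 in males. It kept this direction in all 26 alternative settings, between 0.32 and 0.39. Its adjusted p fell under the threshold in 5 of them, DESeq2 (0.000253), voom (0.00637), no filter on low counts, and the removal of KO female 3 or of Het male 3 among them. Without KO female 2 and Het male 1 the difference was 0.32.

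Other clock genes lay in the same direction by smaller amounts. Of 19 clock genes tested, 18 had a fold change above 0 (all genes, 49.9%), 4 of them at an unadjusted p under 0.05 and none below 0 at that level (all genes, 3.75% and 2.85%). Their median log2 fold change was 0.15, against -0.00 for all genes. Without KO female 2 and Het male 1, 18 of 19 were above 0 and 2 had such a p. Without KO female 1, KO female 3 and KO male 3, 8 had. Over all genes, 383 of 16332 and 636 of 16175 were higher at that p in these settings. Nr1d1, the repressor REV-ERB alpha, was 47.1 to 63.1 CPM in Het (median 54.7) and 60.2 to 76.4 CPM in KO slices (median 66.7). Its log2 difference was 0.28 ± 0.07 (edgeR adjusted p = 0.732), and 6 of 8 KO libraries exceeded all Het ones. Nr1d1 overlaps Thra on the other strand, and since the strand setting of the counting is not given in the sources used here, reads of the shared stretch cannot be assigned. Cry1, a partner of the PER proteins, differed by 0.19 ± 0.07, from 43.0 ± 4.81 CPM in Het (SD, n = 6) to 48.9 ± 4.25 CPM in KO slices (SD, n = 8). Per2 had 0.17 ± 0.09, the output factor Dbp 0.15 ± 0.09 and Ciart, a repressor of the clock, 0.29 ± 0.14. The activator gene Arntl, which oscillates opposite to Per1, had 0.11 ± 0.06. Per2, Dbp, Ciart and Arntl were named after their values were seen. The time of day of collection is not in the labels, so a shift of phase and a shift of level cannot be told apart.

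The stretch before the start site of Per1 is shown because the clock acts on such promoters through the E-box, CACGTG, searched on both strands (it is its own reverse complement). It was found in 2349 of 32851 RefSeq promoter windows of 300 bases (7.15%, GRCm38.p6). The annotated window of Per1 has 1, its first base at -166 from the start site, in capitals below, and the window of a second Per1 start site has none. Of 6 clock genes searched, Per1 and Ciart have a match, the latter 3, and Nr1d1, Nr1d2, Per3 and Dbp have none. Outside the clock list, Reln and Gadd45b have 1 each. The sequences are the 250 bases before the start site, 5′ to 3′, Per1 at chr11:69098699-69098948, plus strand, and Ciart at chr3:95882229-95882478, minus strand. A match describes these letters only.
Per1: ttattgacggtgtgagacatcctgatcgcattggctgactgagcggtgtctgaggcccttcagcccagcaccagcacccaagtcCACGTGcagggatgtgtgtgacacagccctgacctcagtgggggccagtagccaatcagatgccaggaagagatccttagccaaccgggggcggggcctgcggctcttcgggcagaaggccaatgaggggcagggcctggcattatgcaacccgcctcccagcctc
Ciart: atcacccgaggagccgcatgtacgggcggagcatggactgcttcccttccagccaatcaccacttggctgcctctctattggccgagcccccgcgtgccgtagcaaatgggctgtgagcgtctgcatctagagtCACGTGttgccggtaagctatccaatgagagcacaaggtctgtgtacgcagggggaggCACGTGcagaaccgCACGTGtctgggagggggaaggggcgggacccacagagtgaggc

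**Figure D2:**
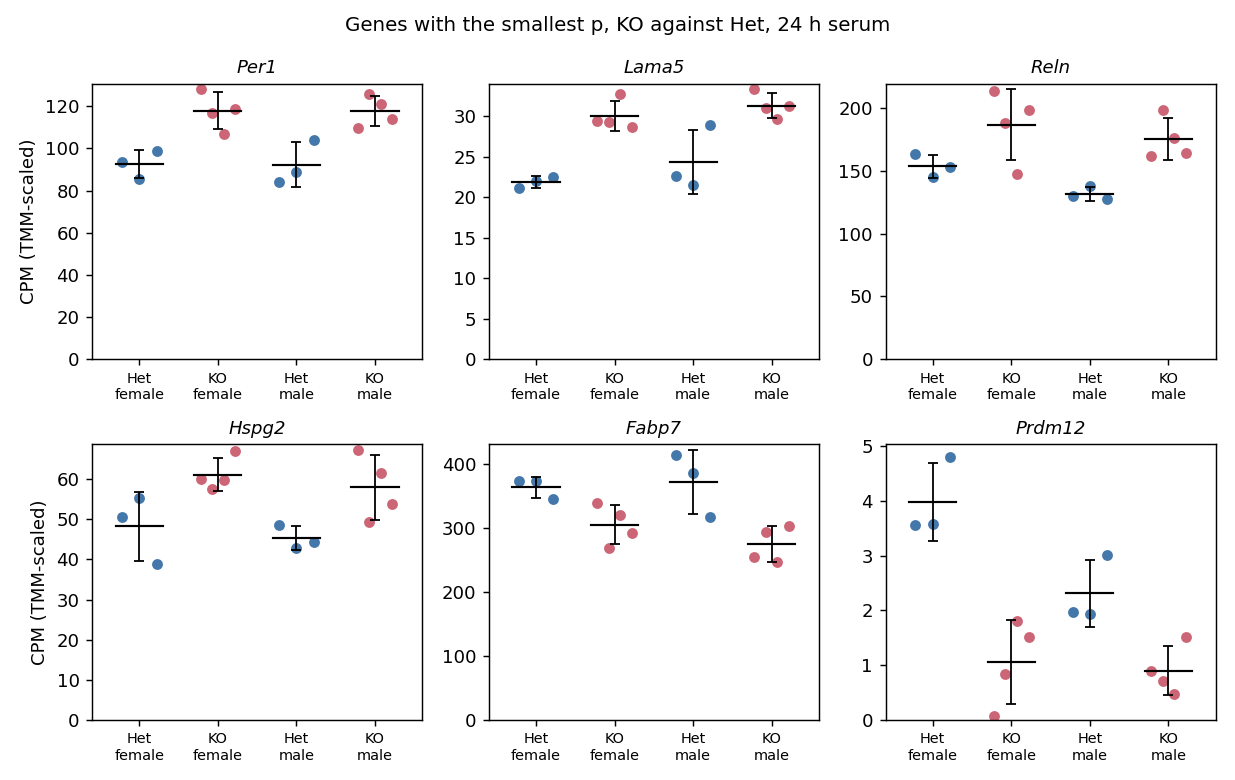
CPM of 6 of the genes with the smallest p in each library, by genotype and sex (Het n = 3, KO n = 4 for each sex); points are libraries, the long bar is the mean and the error bar the SD, and axes start at 0. Per1 and Prdm12 have no overlap between Het and KO, and the other 4 overlap by 1 or more libraries.

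Large proteins of the basement membrane made up a second group of small p. Lama5, whose laminin lies in the membranes around brain vessels and under the pia, was 21.1 to 28.9 CPM in Het (median 22.2) and 28.6 to 33.4 CPM in KO slices (median 30.3). Only Het male 3, the highest Het library, reached into the KO range. The log2 fold change was 0.41 ± 0.07, 0.46 in females and 0.37 in males, and it stayed between 0.38 and 0.48 over the 26 alternatives, 4 of which called it. Without KO female 2 and Het male 1 it was 0.40. Hspg2, which encodes perlecan, the main heparan sulfate proteoglycan of these membranes, was 38.8 to 55.4 CPM in Het (median 46.5) and 49.2 to 67.3 CPM in KO slices (median 60.0). Its difference was 0.35 ± 0.08 with an edgeR adjusted p of 0.677. Lamc1, the gamma 1 chain that joins alpha 5 in laminin trimers, was 119 to 133 CPM in Het (median 128) and 119.8 to 155 CPM in KO slices (median 149), a difference of 0.20 ± 0.05.

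Of the 23 basement membrane genes, 19 were above 0 and 5 had an unadjusted p under 0.05, all higher, with a median of 0.10 (over all genes 49.9% were above 0 and 3.75% higher at that p). The beta chain genes Lamb1 and Lamb2 had 0.10 ± 0.06 and 0.14 ± 0.07, and the collagen IV genes Col4a1 and Col4a2 had 0.05 ± 0.06 and 0.12 ± 0.05, all 4 named after their values were seen. Of 30 fibrillar collagens and matrix glycoproteins 26 were above 0, 5 of them at an unadjusted p under 0.05 and none below 0 at that level, with a median of 0.11. Fbn1, the microfibril protein fibrillin 1, was 20.2 to 25.8 CPM in Het (median 23.4) and 24.3 to 30.8 CPM in KO slices (median 27.6), so that 7 of 8 KO libraries lay above all Het ones. Its difference was 0.27 ± 0.07, that of the fibronectin gene Fn1 0.26 ± 0.09 and that of the thrombospondin gene Thbs1 0.34 ± 0.12. Matrix proteases and their inhibitors had 19 of 26 above 0 and 6 at an unadjusted p under 0.05, all higher, led by Mmp17 (0.19 ± 0.06) and Adamts1 (0.36 ± 0.12). No member of these lists passed after adjustment. The counts moved with the libraries left out. Without KO male 1, KO male 3 and KO male 4, the proteases had 2 of 26 higher at that level, the basement membrane list 4 of 23 and the glycoproteins 2 of 30. Without KO female 1, KO female 3 and KO male 3 these were 6, 7 and 9, and without KO female 2 and Het male 1 they were 2, 4 and 4. Over all genes, 438 of 16856, 636 of 16175 and 383 of 16332 were higher at that level in these settings, in the same order. Of 29 endothelial and mural markers 10 were above 0 (median -0.03) and the tight junction gene Cldn5 had -0.17 ± 0.07. Meningeal markers had 15 of 25 above 0 (median 0.03), but this depended on the libraries. Without KO female 3 their median was 0.16 and without KO female 1 it was -0.05. Without KO female 1, KO female 3 and KO male 3, where the matrix counts were highest, 19 of 25 were above 0. At an unadjusted p under 0.05, 5 were higher and 3 lower (all genes, 636 and 436 of 16175). Dcn, Lum, Ogn, Col1a1, Col1a2 and Col3a1 are in both the meningeal and the glycoprotein list, so their counts partly share genes. The part of meningeal tissue in the matrix values was not tested.

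Further surface and matrix genes stood among the 15 named genes of smallest p. Npnt, the integrin ligand nephronectin, had a log2 difference of 0.28 ± 0.07, and Cspg4, the NG2 proteoglycan of pericytes and oligodendrocyte precursors, 0.33 ± 0.08. Lrp1, an endocytic receptor that clears matrix proteins and proteases, was 387 to 494 CPM in Het (median 432) and 467 to 571 CPM in KO slices (median 524), a difference of 0.25 ± 0.06. Mdga1, a membrane-anchored partner of neuroligins, had 0.26 ± 0.07, and Slc12a4, a potassium chloride cotransporter, 0.22 ± 0.05. Each had an edgeR adjusted p of 0.732.

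Reln encodes reelin, the secreted glycoprotein that guides neuron placement, and is in both the Cajal-Retzius and the interneuron list below. It was 127 to 164 CPM in Het (median 142) and 148 to 213 CPM in KO slices (median 182), with 6 of 8 KO libraries above all Het ones. Its log2 difference was 0.34 ± 0.07 (edgeR adjusted p = 0.476). Without KO female 3 the edgeR adjusted p was 0.0135. Of 15 genes of Cajal-Retzius cells and the reelin pathway, Reln included, 9 were above 0, with a median of 0.04; the reelin receptor gene Vldlr had 0.07 ± 0.05. Of 27 markers of interneurons and olfactory neuroblasts 12 were above 0, 2 of them, Reln included, at an unadjusted p under 0.05, and 5 below 0 at that level (all genes, 49.9%, 3.75% and 2.85%). Their median was -0.04, and 0.03 without KO female 2 and Het male 1. The lower ones included Sp8, a factor of olfactory bulb interneurons (-0.58 ± 0.17), and Th, the dopamine synthesis enzyme (-0.47 ± 0.18).

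Fabp7, the brain lipid-binding protein of radial glia and young astrocytes, was lower in KO slices. It ran from 317 to 413 CPM in Het (median 373) and from 246 to 339 CPM in KO slices (median 293), with 6 of 8 KO libraries below all Het ones. Its log2 fold change was -0.35 ± 0.07 (edgeR adjusted p = 0.476), and -0.27 without KO female 2 and Het male 1. Astrocyte and radial glia markers had 5 of 25 above 0 (all genes, 49.9%) and a median of -0.09, with 3 below 0 at an unadjusted p under 0.05 (all genes, 2.85%): Fabp7, Pax6, a factor of neural progenitors (-0.32 ± 0.13), and the folate enzyme gene Aldh1l1 (-0.21 ± 0.09). Without KO male 1, KO male 3 and KO male 4, 12 of 25 were above 0 and the median was -0.03.

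Prdm12, a chromatin regulator known from pain-sensing neurons and hypothalamic neurons, was a weakly expressed gene in these slices. It was 1.94 to 4.79 CPM in Het (median 3.28) and 0.0749 to 1.80 CPM in KO slices (median 0.864), and every KO library lay below every Het library. Its log2 difference was -1.62 ± 0.34 (edgeR adjusted p = 0.476), and -1.61 without KO female 2 and Het male 1. Prdm12 is on chromosome 2 at 31640037 to 31655795, on the same chromosome as Tnfaip6.

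Genes that flank Tnfaip6 on chromosome 2 were read as a group. Of 25 tested, 13 were above 0 and the median was 0.01. At an unadjusted p under 0.05, 1 was higher and 5 lower (all genes, 3.75% and 2.85%). Without KO female 2 and Het male 1 these were 2 and 3 (all genes, 383 and 255 of 16332). Arl5a, a small GTPase of the Golgi, at 52397951 to 52424901, was 75.5 to 90.4 CPM in Het (median 80.4) and 61.4 to 78.4 CPM in KO slices (median 66.5). KO female 2 was the one KO library inside the Het range. Its difference was -0.25 ± 0.06 with an edgeR adjusted p of 0.677, and -0.27 without KO female 2 and Het male 1. Lypd6b and Lypd6, which encode modulators of nicotinic receptors, lie near each other on the other side, at 49787688 to 49948849 and 50066429 to 50193569. They differed by -0.34 ± 0.11 and -0.19 ± 0.09.

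Immediate early genes, which neurons and glia switch on within minutes of activity or growth factor signals, lay higher in KO slices. Of 32 tested 31 were above 0, 9 higher at an unadjusted p under 0.05 (all genes, 3.75%), with a median log2 fold change of 0.29 (0.37 in females, 0.23 in males). None passed after adjustment. Nr4a3, an orphan nuclear receptor, was 41.1 to 81.5 CPM in Het (median 65.5) and 59.6 to 202 CPM in KO slices (median 111), a difference of 0.89 ± 0.24 with an edgeR adjusted p of 0.732. KO female 3 and KO male 4 stood within the Het range, and the other 6 KO libraries above it. Junb, a subunit of AP-1, went from 46.3 ± 9.14 CPM (SD, n = 6) to 69.7 ± 17.3 CPM (SD, n = 8), a difference of 0.59 ± 0.16. Nr4a1 went from 70.6 ± 23.5 to 127 ± 48.8 CPM, a difference of 0.85 ± 0.25. Arc and Fos, named after their values were seen, had 0.84 ± 0.27 and 0.58 ± 0.22. Gadd45b, an activity-induced gene linked to DNA demethylation, was 11.2 to 22.6 CPM in Het (median 16.6) and 19.2 to 39.8 CPM in KO slices (median 23.8), a difference of 0.68 ± 0.17. The spread was wide within groups. Relative to the mean of the 6 Het libraries, the mean log2 CPM of the list was 0.70 in KO female 1 and 0.63 in KO female 2 but -0.12 in KO female 3 and -0.06 in KO male 4. Among Het libraries it was 0.30 in Het male 3 and -0.31 in Het male 2. In libraries other than KO female 2 and Het male 1, 29 of 32 were above 0, with a median of 0.26. At an unadjusted p under 0.05 there were 7 (all genes, 383 of 16332 higher).

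The hyaluronan system, in which TSG-6 acts, showed no common direction. Of 32 genes 28 were tested, and Itih1, a heavy chain gene of inter-alpha-inhibitor, had 0 counts in every library. Above 0 were 16 of 28 (all genes, 49.9%), with a median of 0.04, and 3 had an unadjusted p under 0.05, all higher (all genes, 3.75%). Layn, a hyaluronan receptor, was 15.2 to 22.1 CPM in Het (median 17.1) and 17.2 to 30.1 CPM in KO slices (median 23.8), a difference of 0.36 ± 0.12. Tnfaip6 itself was the second. Ptx3, a pentraxin that binds TSG-6, was the third, at 1.05 ± 0.44, and its KO values ran from 22.5 to 277 CPM. The synthase genes Has1, Has2 and Has3 had 0.48 ± 0.35, 0.37 ± 0.18 and -0.01 ± 0.07. The receptor gene Cd44 had 0.22 ± 0.13. Heavy chain genes Itih2, Itih3 and Itih5 had -0.03 ± 0.22, -0.09 ± 0.13 and -0.06 ± 0.11, and the degrading enzymes Hyal1 and Hyal2 had -0.03 ± 0.16 and 0.04 ± 0.07. Among the hyaluronan-bound proteoglycans of brain matrix, Ncan had 0.03 ± 0.05, Vcan 0.12 ± 0.07, Bcan -0.13 ± 0.08 and Acan 0.29 ± 0.19. The 95% interval of Ncan ran from 0.955-fold to 1.09-fold, whereas Has1 was under 2 CPM in every library.

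Inflammatory genes varied widely between libraries of 1 group. Of 30 proinflammatory and NF-kB genes 29 were above 0 and 16 had an unadjusted p under 0.05, all higher (all genes, 3.75%), with a median of 0.61. This stood mainly in 3 of the 4 KO males: the mean log2 CPM of the list, relative to the mean of the Het libraries, was 2.29 in KO male 1, 1.13 in KO male 3 and 0.45 in KO male 4, but -0.28 in KO male 2. In the 4 KO females it ran from -0.02 to 0.34. Without KO males 1, 3 and 4, 19 of 30 were above 0 and the median was 0.15. At an unadjusted p under 0.05 there were 0 (all genes, 438 of 16856 higher). Those males were the highest KO libraries of this list, so lower values without them were bound to follow. Without KO female 2 and Het male 1 all 30 were above 0, with a median of 0.62. There 8 had an unadjusted p under 0.05 (all genes, 383 of 16332 higher). Cxcl10, a chemokine gene named after its values were seen, was 135 CPM in KO male 1, 78.2 in KO male 3 and 42.1 in KO male 4, against 8.32 to 27.8 CPM in Het libraries. The lead members by p were Tnfaip2 (1.02 ± 0.33), the NF-kB subunit gene Relb (0.49 ± 0.17) and the complement gene C3 (1.19 ± 0.42), each with an edgeR adjusted p of 0.732.

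KO males 1 and 3 also stood high for acute phase genes, but these were not a separate set. Lcn2 and Saa3 belong to the inflammatory list above, and Lcn2 and Cxcl10 belong both to it and to the pan-reactive astrocyte list. Lcn2, the iron-siderophore binding lipocalin, was 241 CPM in KO male 1 and 78.6 CPM in KO male 3, and 3.59 to 14.6 CPM in Het libraries. Saa3, a serum amyloid gene, was 123 CPM and 32.8 CPM in those libraries and at most 6.01 CPM in Het. Pan-reactive astrocyte genes had 14 of 16 above 0 and 6 higher at an unadjusted p under 0.05 (all genes, 49.9% and 3.75%). Without KO males 1, 3 and 4 these became 11 of 16 and 0 (all genes, 438 of 16856 higher). Those were the highest KO libraries of this list and of the interferon list, so lower values without them were bound to follow. Interferon response genes had 27 of 33 above 0 and a median of 0.17, and 4 of 33 and -0.22 without those libraries. They had 19 of 33 and 0.01 without KO female 2 and Het male 1, and in females alone 10 of 33 and -0.09. High and low values of the interferon gene Ifit1 stood in both genotypes or sexes: it was 26.4 CPM in KO male 3 and 15.9 CPM in Het male 3, and 0.955 CPM in KO female 3. Markers of microglia and macrophages had 11 of 29 above 0 and a median of -0.05, and their summed level ran from 1539 to 2088 CPM in KO and from 1609 to 2412 CPM in Het slices. Their part in these values was not tested.

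**Figure D3:**
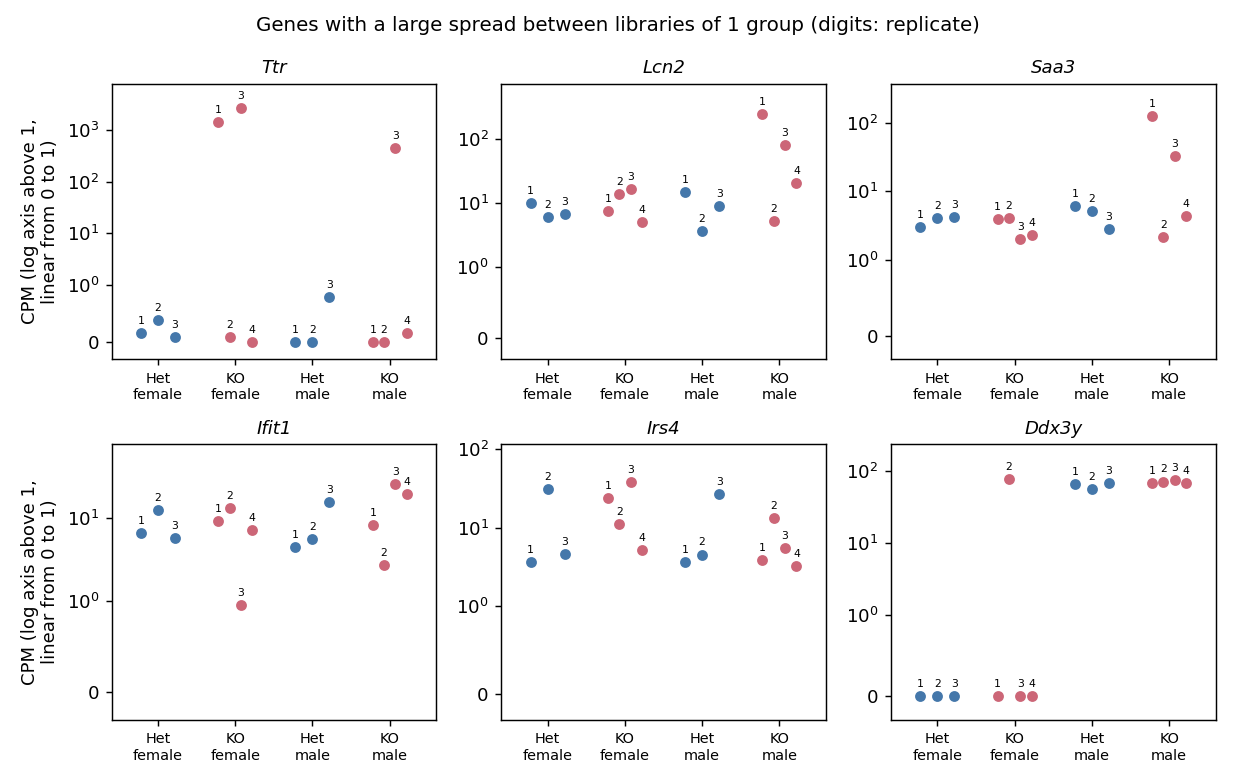
CPM of 6 genes with a large spread within groups, by genotype and sex, with the replicate number above each point; the axis is logarithmic above 1 CPM and linear from 0 to 1. Ttr is above 400 CPM in KO female 1, KO female 3 and KO male 3 only, Lcn2 and Saa3 are highest in KO males 1 and 3, and Ddx3y is present in KO female 2.

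Transcripts of choroid plexus epithelium, the secretory tissue of the ventricles, stood high in 3 libraries, all of them KO. Its abundant transcript Ttr, transthyretin, was 1472 CPM in KO female 1, 2706 CPM in KO female 3 and 456 CPM in KO male 3, and at most 0.778 CPM in the 11 other libraries. Of 20 choroid plexus genes 18 were above 0 and 13 had an unadjusted p under 0.05, all higher (all genes, 3.75%), with a median of 0.69. Without the 3 libraries 11 of 17 were above 0, with a median of 0.14. At an unadjusted p under 0.05 there was 1 (all genes, 636 of 16175 higher). The 3 were left out for their Ttr, so lower values without them were bound to follow. The summed level of the list was 404 to 515 CPM in Het and 448 to 3442 CPM in KO slices. Per1, Lama5, Reln and Fabp7 kept their differences without these 3 libraries, at 0.34, 0.40, 0.37 and -0.38. Enpp2, a choroid plexus and oligodendrocyte enzyme that makes lysophosphatidic acid, was 109 to 160 CPM in Het (median 137) and 144 to 227 CPM in KO slices (median 155).

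**Figure D4:**
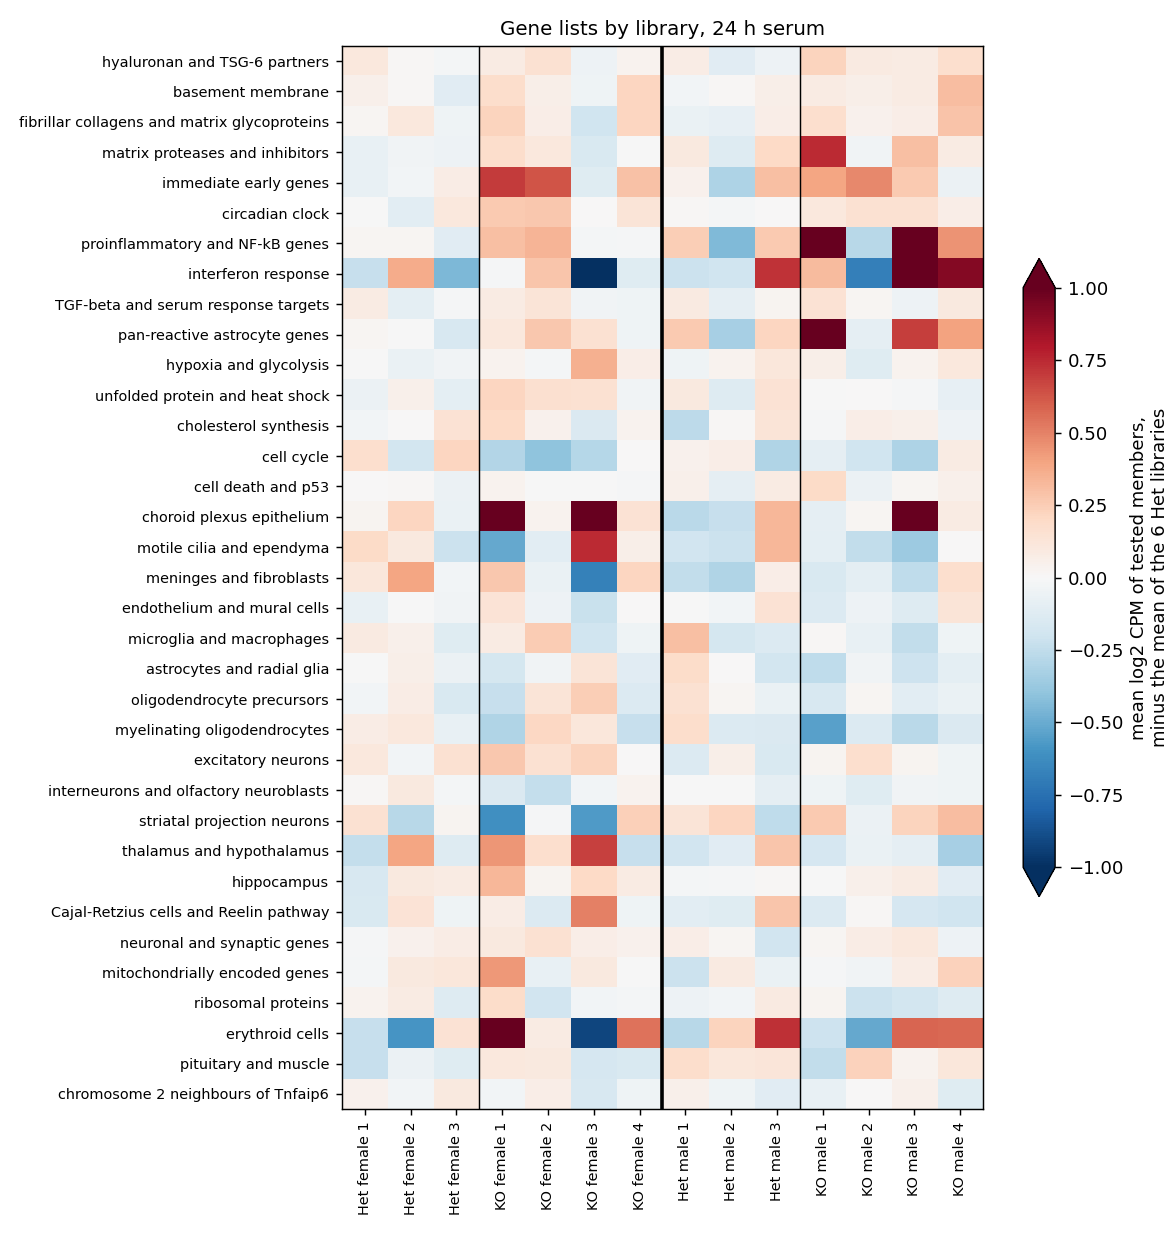
Mean log2 CPM of the tested members of each gene list, 1 column per library, relative to the mean of the 6 Het libraries (colour scale ends at 1 and -1; larger values take the end colour). Inflammatory genes are high in KO male 1 and KO male 3, choroid plexus genes in KO female 1, KO female 3 and KO male 3, and immediate early genes in KO female 1 and KO female 2; the thick line parts females from males.

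Cell cycle genes lay lower in KO slices on balance. Of 38 tested 4 were above 0, and 11 had an unadjusted p under 0.05, all lower (all genes, 2.85%), with a median of -0.22. Bub1, a spindle checkpoint kinase, went from 6.57 ± 1.14 CPM (SD, n = 6) to 4.94 ± 0.851 CPM (SD, n = 8), a difference of -0.41 ± 0.14. The mitotic kinase gene Aurkb had -0.49 ± 0.18 and the replication helicase gene Mcm5 -0.30 ± 0.11. All 38 were below 0 in females (median -0.32) and 28 in males (median -0.07). The count at that p moved with the libraries left out. Without KO female 2 and Het male 1 it was 1 of 38 (all genes, 255 of 16332 lower). There 33 were below 0, with a median of -0.16. Without the 3 libraries with Ttr it was 2 of 38 (all genes, 436 of 16175 lower), at a median of -0.11. Without KO males 1, 3 and 4 it was 19 of 38 (all genes, 412 of 16856 lower), with a median of -0.30. Summed, the list ran from 667 to 938 CPM in Het and from 637 to 856 CPM in KO slices, which overlap. Ribosomal protein genes were all 30 below 0, by a median of -0.07, with 1 at an unadjusted p under 0.05 (Rpl10, -0.09 ± 0.04); in females alone 14 of 30 were above 0.

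Neuronal lists had medians between -0.04 and 0.11, some of which turned with the libraries used. That of excitatory neurons did not, at 0.08 to 0.16 over single libraries left out. Excitatory neuron markers had 21 of 26 above 0 (all genes, 49.9%) and a median of 0.11. At an unadjusted p under 0.05 there were 3, all higher (all genes, 3.75%), among them Mef2c (0.31 ± 0.11) and Neurod2 (0.18 ± 0.08), transcription factors of cortical neurons. Neuronal and synaptic genes had 21 of 26 above 0 and a median of 0.04, among them Grin2a, an NMDA receptor subunit that comes up as synapses mature (0.35 ± 0.12). Markers of striatal projection neurons had 10 of 23 above 0 and a median of -0.04 (-0.21 in females, 0.13 in males). Without the 3 libraries with Ttr they had 19 of 23 above 0, 7 of them at an unadjusted p under 0.05 (all genes, 636 of 16175 higher), and a median of 0.10. Markers of thalamus and hypothalamus had a median of 0.10, and -0.05 without those libraries, and markers of hippocampus 0.06. Myelinating oligodendrocyte genes had 3 of 14 above 0 (median -0.11) and oligodendrocyte precursor genes 8 of 18 (median -0.04), where Olig2, a factor of that lineage, had -0.18 ± 0.06. Among the 25 meningeal markers 3 were below 0 at an unadjusted p under 0.05 (all genes, 2.85%). They included Zic1 and Zic4, zinc finger factors that neurons of the septum and olfactory bulb also express, at -0.52 ± 0.18 and -0.60 ± 0.21. Hypoxia and glycolysis genes (median 0.03), unfolded protein and heat shock genes (0.03), cholesterol synthesis genes (0.03, and -0.02 without KO female 2 and Het male 1), cell death genes (0.02) and targets of TGF-beta and serum response factor (0.07) stayed near the median of all genes.

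In females alone no gene passed, and 657 had an unadjusted p under 0.05 (4.1%), 2.06% higher and 2.04% lower, with 51.2% of genes above 0. At a mean log2 CPM of 1 or more the smallest were those of Lama5 (0.46 ± 0.10) and Per1 (0.35 ± 0.08), followed by Sp8, Prdm12 and Slfn9. Sp8 was 11.7 to 13.9 CPM in Het females and 5.32 to 8.59 CPM in KO females, with no overlap, a difference of -0.88 ± 0.21, and -0.78 without KO female 2 and Het male 1. In males no gene passed either, and 1100 had an unadjusted p under 0.05 (6.87%). Plagl1, an imprinted zinc finger factor that restrains growth, was 25.1, 30.4 and 25.7 CPM in Het males and 47.7, 41.8, 42.0 and 43.1 CPM in KO males. The male groups did not overlap, but the share of all genes so separated within 1 sex was not counted, here or for Sp8. The difference was 0.68 ± 0.11 with an edgeR adjusted p of 0.137. It was 0.62 without KO female 2 and Het male 1. In females Plagl1 was 33.9 to 39.5 CPM in Het and 32.4 to 41.4 CPM in KO slices, a difference of 0.00. KO female 2, the library with Y-linked transcripts and no Xist, is among these. It had 32.7 CPM, below every KO male. DESeq2 called Plagl1 in males (adjusted p = 0.000162).

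Whether KO minus Het differed between males and females was tested itself. No gene passed in edgeR, where the smallest adjusted p was 0.977, and 618 genes had an unadjusted p under 0.05 (3.86%; 1.91% more positive in males, 1.95% more negative), with 50.1% above 0. At a mean log2 CPM of 1 or more the first by p were Nefm, the medium neurofilament (0.33 in females, -0.30 in males, a difference of -0.63 ± 0.13), Plagl1 (0.68 ± 0.15), Bbs5, a cilium trafficking gene (-0.76 ± 0.18), Cntnap5b (0.53 ± 0.13) and St3gal6 (-0.91 ± 0.23). Nefm and St3gal6 each overlap another gene, Nefl and Dcbld2.

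Female and male libraries are separate sets, so each can be read in the other. Of 330 genes higher in KO females at an unadjusted p under 0.05, 211 were also above 0 in males (63.9%, against 49.7% of all genes), and 24 were higher there at the same level (7.27%, against 4.13%). Per1, Reln, Lama5, Lrp1, Hspg2, Mdga1, Nr4a3, Slc12a4, Gadd45b and Fbn1 were among the 24. Of 327 genes lower in females 215 were below 0 in males and 15 at that level (4.59%, against 2.74%), with Fabp7, Arl5a and Prdm12 among them. The genes listed here had been named for a small p over both sexes in the same libraries. Their place in these counts is therefore no separate evidence. In the opposite direction at that level there were 8 of the 330 and 5 of the 327. Read the other way, of 661 genes higher in males 63.8% were above 0 in females (all genes, 51.2%). Of 439 lower in males 55.1% were below 0 in females (all genes, 48.8%). At an unadjusted p under 0.01, 48.6% of 70 genes lower in males were below 0 in females, with 4 higher there at a p under 0.05 (all genes, 48.8% below 0). Over the 14059 genes with a mean log2 CPM of 1 or more, the female and male fold changes had a Pearson r of 0.217 and a Spearman rho of 0.0753, and 53.1% had the same sign. These correlations run across genes, which are not independent, within 1 set of libraries.

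**Figure D5:**
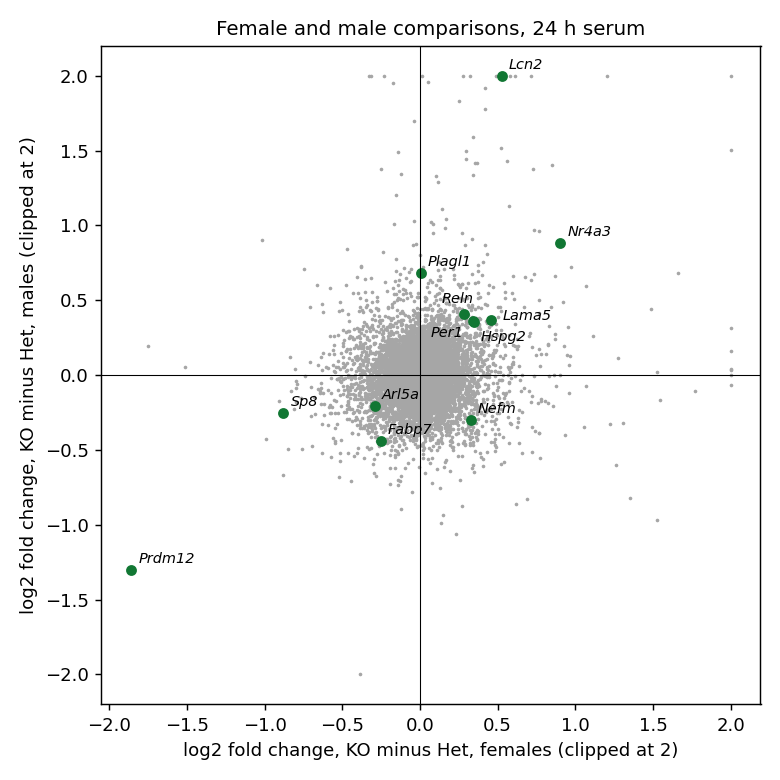
Log2 fold change, KO minus Het, in males against that in females for the 14059 genes with a mean log2 CPM of 1 or more, 1 point per gene (values beyond 2 are drawn at the edge). Per1, Lama5, Reln and Hspg2 lie above 0 on both axes, Prdm12, Fabp7, Arl5a and Sp8 below 0 on both, while Plagl1 lies at 0 in females and Nefm has opposite signs.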

How the data were processed

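Gene counts per library were deposited by the authors as raw whole-number counts in a table for the 24 h samples. Alignment and counting tools listed in the submitters' processing notes are TopHat2 and HTSeq, beside DESeq2 1.38.3, with GRCm38 and mm10 as builds. Per the labels' protocols, libraries were made from total RNA with the SMART-Seq v4 kit. For TopHat2 and HTSeq no version is given in the sources used here, nor is an annotation release or a strand option. Identifiers without a symbol held 0.0396% of counts.

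Groups came from the sample titles. Counts were filtered with edgeR's default (16013 genes kept), scaled by TMM and tested with edgeR 4.0.16 (quasi-likelihood F test, R 4.3.3) with sex and genotype as terms, or with 4 group means for each sex and for the difference between sexes. Adjustment was Benjamini-Hochberg over all genes, with a threshold of 0.05. CPM are TMM-scaled, and log2 CPM used a prior count of 2. Alternatives were limma 3.58.1 voom, DESeq2 1.42.0, other scaling, no filter, a replicate block and libraries left out. Tables used Python 3.11.15, pandas 2.3.3 and scipy 1.17.1. The edgeR step was tested on simulated data.

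Named genes were the 15 of smallest p in both sexes (5 for each other contrast) with a mean log2 CPM of 1 or more and a proper symbol, the 3 of smallest p in each of 36 lists, all hyaluronan genes, the 15 with the largest spread within groups, Tnfaip6 and sex-linked genes; others are said to be chosen after their values were seen. Lists were described by counts and medians, with no set test. The comparison and the lists were chosen with earlier results of these data known. Gene positions came from the GENCODE annotation of GRCm38 and promoter windows from RefSeq, and intervals cover these libraries only. Some genes that the naming rule selects are not reported here.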

Additional observations from a re-analysis of the deposited data

Results flagged for a closer look

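Within groups of 4 libraries, 7 of the 60 sets of values examined had 1 library far from the other 3, where chance marks about 1 in 20 groups. Most of the 7 are sex-linked genes of KO female 2, so the sets are not independent. Their number cannot be set against that rate. In the library labelled KO female 2, Ddx3y was 77.1 CPM, Eif2s3y 26.6, Kdm5d 29.1 and Uty 21.2 CPM, all Y-linked genes at 0 in the other KO females, and Xist was 0 CPM against 343.7 to 364.4 CPM. Ttr was 456 CPM in KO male 3 and at most 0.159 CPM in the other KO males. Eif3j2, a subunit gene of a translation initiation factor that has a near-identical copy, was 20.04 CPM in KO male 4 and 8.87 to 10.7 CPM in the other KO males.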

How the results depend on the processing

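No gene was called in edgeR for KO minus Het in both sexes, in females, in males, or for the difference between the sexes. Without the filter on low counts these became 105, 180, 220 and 165 genes. Of those, 101, 175, 210 and 159 were among the genes that the filter keeps. DESeq2 called 6, 1, 1 and 1, and limma voom 2 in both sexes. Leaving out single libraries gave 0 to 2 in both sexes: 2 without KO female 3 (Reln and Per1) and 2 without Het male 3 (Per1 and Lama5). It gave 0 in females, in males and for the difference. Male minus female called 2 to 9 genes over single libraries left out, and 9 without both KO female 2 and Het male 1, an alternative chosen after seeing the data. Leaving out the 3 libraries with Ttr, or KO males 1, 3 and 4, was likewise chosen after seeing the data. The genes of smallest p in each contrast kept their direction in every alternative fitted for them, but some medians of gene lists near 0 changed sign. Without KO males 1, 3 and 4 interferon genes went from 0.17 to -0.22. Without the 3 libraries with Ttr, thalamus and hypothalamus went from 0.10 to -0.05 and striatal neurons from -0.04 to 0.10. Without KO female 2 and Het male 1, cholesterol synthesis went from 0.03 to -0.02. With replicate numbers as a block, edgeR called 1 gene in both sexes, 6 in females, 0 in males and 4 for the difference. The numbers are those of the sample titles, which partly differ from the column names. Same-numbered libraries had correlations between -0.117 and 0.087, from which a shared animal or batch cannot be told. The cause of these shifts was not tested. Library totals limit the precision of low genes, such as Tnfaip6 with 45 to 108 reads.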
